A study of Mus musculus with 17 samples.

Results

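After retinoic acid (RA), 176 stretches of chromatin carried an acetylation peak in cells with Sirt6 and in cells without it, while no untreated peak list held them. They were selected on the peak calls themselves: the 8 deposited peak lists for acetylated lysine 9 and lysine 56 of histone H3 (H3K9ac and H3K56ac) were merged wherever peaks shared 1 bp or more, chaining across lists. A region was kept when at least 1 WT list and at least 1 KO list after RA held a peak and none of the 4 untreated lists did. This gave 176 of 6400 merged regions, or 2.75% (Wilson interval 2.38% to 3.18%), and 6.96% of the 2530 regions called after RA in both genotypes. Because the calls chose the regions, their number, marks, fold enrichment and length are given as a description with no test. Overlap with Sirt6 and with 5-hydroxymethylcytosine was not used to choose them.

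Acetylation of histone tails loosens the contact between histones and DNA and marks promoters and enhancers that are in use. H3K9ac lies on the tail of histone H3, whereas lysine 56 sits in the globular core near the point where DNA enters the nucleosome. Sirt6 is a NAD-dependent deacetylase that removes both marks. RA binds nuclear receptors that sit on DNA, switches on early developmental genes and drives embryonic stem cells out of pluripotency.

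The cells were mouse embryonic stem cells of the 129 strain, either wild type (WT) or Sirt6 knockout (KO), kept with leukemia inhibiting factor on irradiated feeder fibroblasts that were removed by plating. The untreated groups were these cells as grown, and the RA groups were moved to medium without that factor, were then given all-trans RA (stock of 0.01 M, diluted 10000 times) for 2 days, and were collected a day after the RA was taken away. RA cells therefore differ from untreated cells by loss of the factor as well as by RA, and the effects of each cannot be told apart. Each of the 8 combinations of mark, genotype and treatment was 1 chromatin immunoprecipitation (ChIP-seq) library, so no difference has a replicate check and all intervals are 95% intervals that cover counting error alone. The sources used here do not say how many cell clones stand behind each genotype. Positions are in mouse build mm9. Genes and sequences at the regions were not analysed here for want of a reference of that build, and the cell type was not checked against marker genes for the same reason. The Sirt6 ChIP gave 14510 peaks in untreated WT cells, from 2008232 filtered tags, and 0 in both KO libraries, which held 40006795 and 48956556. Tags after filtering numbered 6145525 to 10250030 in the RA libraries and 5782181 to 7790807 in the untreated ones, a sum of 31758683 against 28510396. MACS2 put the fragment length at 155 bp for untreated WT H3K9ac, at 175 bp for untreated WT H3K56ac, and at 198 to 227 bp for the other 6 acetylation libraries. Whether these differences in depth and fragment length contribute to the set was not tested.

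Most gained regions held H3K9ac, as did most acetylation regions of the series. At least 1 H3K9ac list held 165 of the 176 regions, or 93.8% (89.2% to 96.5%), and at least 1 H3K56ac list held 94, or 53.4% (46.0% to 60.6%). Over all 6400 merged regions these shares were 88.1% and 63.9%. H3K9ac peaks were present in both genotypes at 128 regions, or 72.7% (65.7% to 78.8%), and H3K56ac peaks in both genotypes at 31, or 17.6% (12.7% to 23.9%). Both shares were below those of all 2530 regions called after RA in both genotypes, 90.0% for H3K9ac and 65.0% for H3K56ac. With the 8 lists held to the same number of peaks, the share of gained regions with H3K9ac in both genotypes was 48.8%. The most common pattern was H3K9ac alone in WT and KO, with 82 regions. All 4 RA lists held 12 regions. At 29 regions the genotypes were joined only by different marks: 22 had H3K9ac in KO and H3K56ac in WT, and 7 the reverse. For these 29 regions the lists do not show gain of any single mark in both genotypes. The H3K9ac library of KO cells was the deepest and held the largest share of the gained regions, 156 of 176, against 137 for H3K9ac in WT, 71 for H3K56ac in WT and 54 for H3K56ac in KO.

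**Figure D1:**
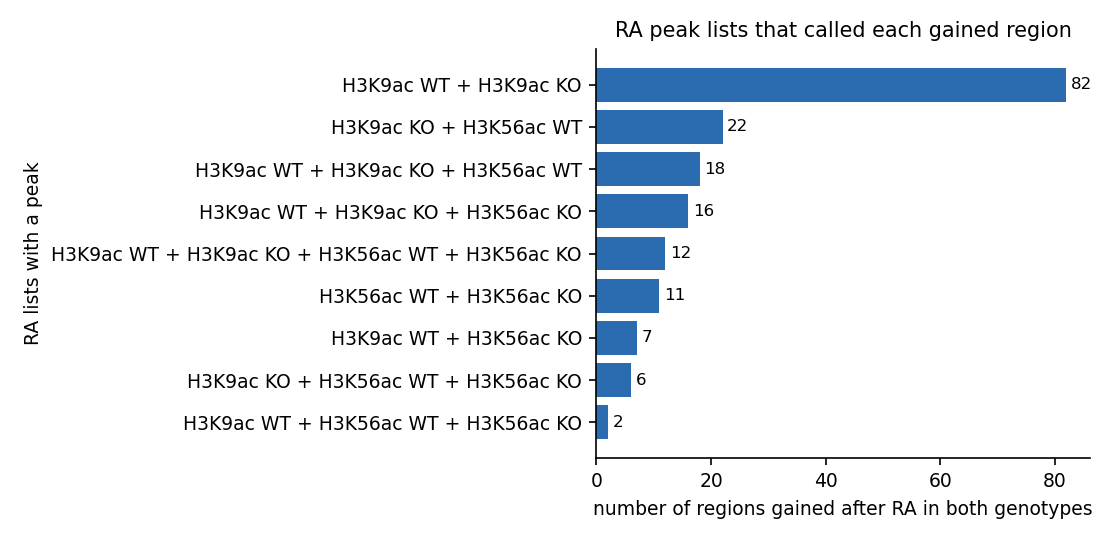
Number of gained regions (x axis) for each combination of RA peak lists that held them (y axis); each region is counted once. H3K9ac in WT and KO without H3K56ac accounts for 82 regions, and all 4 lists together for 12.

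The 12 regions in all 4 RA lists are those where both marks appeared in both genotypes. The most even of them lay on chromosome 1 (100181934 to 100182200). Its fold enrichment, the MACS2 ratio of tags at the summit to the local background that the authors deposited, was 11.4 for H3K9ac in WT and 11.2 in KO. For H3K56ac the same region had 11.5 in WT and 10.9 in KO. On chromosome X (48622434 to 48622670) the folds were 11.0 and 11.3 for H3K9ac and 10.3 and 9.28 for H3K56ac, WT first. On chromosome 6 (15524663 to 15525011) they were 9.17 and 10.2 for H3K9ac and 11.9 and 9.82 for H3K56ac. At their summits these 3 regions had 24, 20 and 18 tags for H3K9ac in WT and 25, 23 and 22 in KO. H3K56ac gave 20, 17 and 20 tags in WT and 21, 16 and 17 in KO. Within each mark the folds of WT and KO were similar there, except for H3K56ac on chromosome 6, at 11.9 in WT and 9.82 in KO. These 3 regions were picked because the lowest of their 4 folds was high, which favours even values. The tag counts are not scaled to depth. A less even region on chromosome 13 (76770084 to 76770339) had 10.5 and 10.4 for H3K9ac but 12.7 in WT and 7.64 in KO for H3K56ac. The others named here lay on chromosomes 6 (119160472 to 119160762), X (4706081 to 4706307), 9 (8862790 to 8863125), 8 (100611524 to 100611761), 14 (50611198 to 50611483) and 17 (52008518 to 52008795). Over the 12 regions the lowest of the 4 folds ran from 5.73 to 10.9, with a median of 7.64. None of the 12 overlapped a Sirt6 peak.

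The highest single values were for H3K9ac. The first region, on chromosome X (94727282 to 94727505), had an H3K9ac fold of 14.6 in KO, from 30 tags at the summit, and 9.45 in WT, from 17 tags. The second, on chromosome 6 (139870728 to 139870981), had 14.1 in KO and 8.40 in WT for H3K9ac, and 10.5 for H3K56ac in KO. The third, on chromosome 3 (4256973 to 4257208), leaned the other way, with 14.0 in WT and 9.43 in KO for H3K9ac and 8.32 for H3K56ac in WT. A pair of regions close to equal in both genotypes lay on chromosome 9 (61952247 to 61952460; 12.9 in WT and 12.1 in KO) and chromosome 11 (42878690 to 42878973; 12.3 and 12.2). On chromosome 1 (112708073 to 112708392) the H3K9ac folds were 12.2 and 13.2, and on chromosome 16 (48808313 to 48808562) 10.2 and 12.8. Among the 10 highest, those on chromosomes X (103482148 to 103482390) and 6 (26960408 to 26960631) were joined by H3K9ac in KO (13.7 and 12.6) and H3K56ac in WT (8.92 and 7.73), so neither had the same mark in both genotypes. The highest region with H3K56ac in both genotypes but H3K9ac in fewer lay on chromosome 9 (117529462 to 117529690), at 11.9 in WT and 8.14 in KO. None of these regions overlapped a Sirt6 peak.

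The gained regions were low among the peaks of the lists that called them. The median fold was 8.92 for the 137 regions in H3K9ac of WT (range 2.50 to 14.0), against 11.6 over all 2626 peaks of that list. It was 8.80 against 10.6 for H3K9ac in KO, 8.32 against 11.3 for H3K56ac in WT and 8.16 against 10.9 for H3K56ac in KO. Between 84.0% and 96.3% of the gained regions lay under the median of the list they were called in. Taking the highest RA fold of each region, the median was 9.45 (quartiles 8.53 and 10.7). The highest fold in any list had a median of 9.23 over all merged regions, 8.23 over regions called after RA in WT only and 7.54 over those in KO only. It was 13.5 over regions of both conditions with RA peaks in both genotypes but not in all 8 lists, and 21.4 in all 8 lists. By rule each gained region had peaks in more than 1 list, whereas a region of 1 genotype can have 1, which favours a higher maximum. The lowest RA fold of the gained regions had a median of 8.01. All merged regions include 1590 of untreated KO only, with a median of 5.88, which the rule leaves out. A fold of 10 or more was reached in at least 1 list by 68 regions, and in every list that called them by 10. The authors' −log10 q was 10 or more at 81.0% and 79.5% of the gained regions in H3K9ac of WT and KO, beside 91.1% and 82.3% of all peaks there. For H3K56ac these shares were 49.3% in WT and 42.6% in KO, beside 82.2% and 78.6%.

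**Figure D2:**
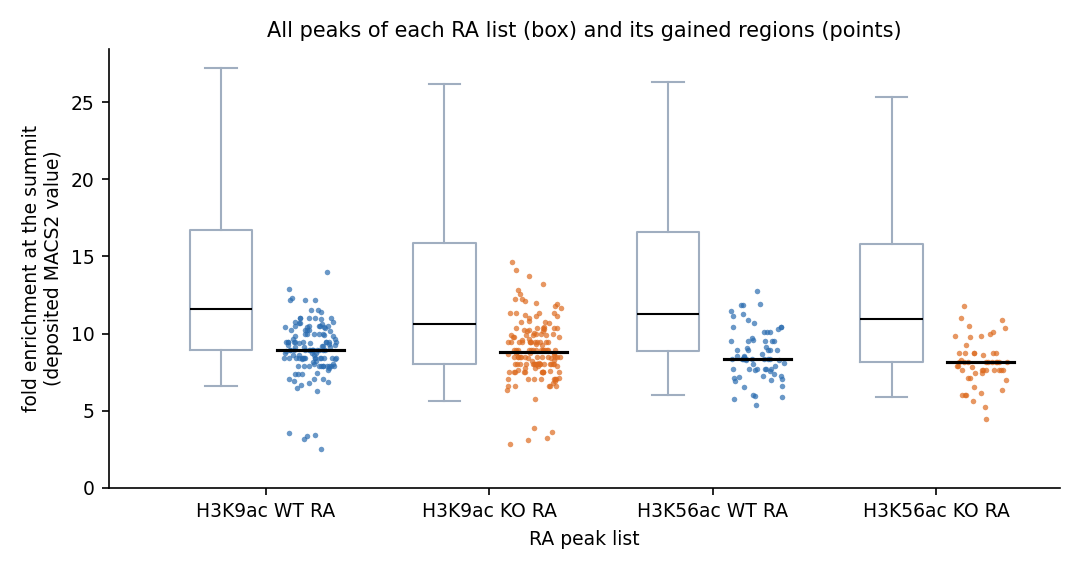
Deposited fold enrichment (y axis) in the 4 RA lists (x axis); boxes give the quartiles and median of all peaks with whiskers at the 5th and 95th percentile, points are gained regions in WT (blue) and KO (orange), and black lines their medians. The medians of the gained regions, 8.16 to 8.92, lie under those of all peaks, 10.6 to 11.6.

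A region missing from an untreated list is one below the authors' threshold, not a measured absence, so the heights after RA were set beside those of untreated peaks. In H3K9ac of WT after RA the gained regions had a median of 1.99 tags per 1000000 filtered tags at the summit (range 1.29 to 7.27). The weakest 5% of untreated WT H3K9ac peaks lay under 1.55, and 130 of the 137 regions were above that. For H3K56ac of WT, 69 of 71 regions were above the corresponding 1.54. In KO the margin was smaller: 91 of 156 H3K9ac regions were above 1.66, and 36 of 54 H3K56ac regions were above 1.90. Few were above the median peak of the untreated list of their own mark and genotype: 13 of 137, 19 of 156, 17 of 71 and 2 of 54, in the order H3K9ac WT, H3K9ac KO, H3K56ac WT and H3K56ac KO. The heights after RA thus lay within the range of what was called in untreated cells. MACS2 extends each tag to the fragment length, which was longer after RA in WT (198 against 155 bp for H3K9ac, 207 against 175 bp for H3K56ac) and nearly equal in KO (204 against 212 bp, and 227 against 224 bp). The weakest 5% of peaks in the RA lists themselves lay under 1.64 for H3K9ac and 1.95 for H3K56ac in WT, above the untreated limits. In KO they lay under 1.37 and 1.75, below the untreated limits. Gained regions are by rule peaks of the RA lists, so the counts above are not independent of these limits. The parts of fragment length and of these limits in the wider margin of WT were not tested. The untreated heights at these regions were not analysed here.

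**Figure D3:**
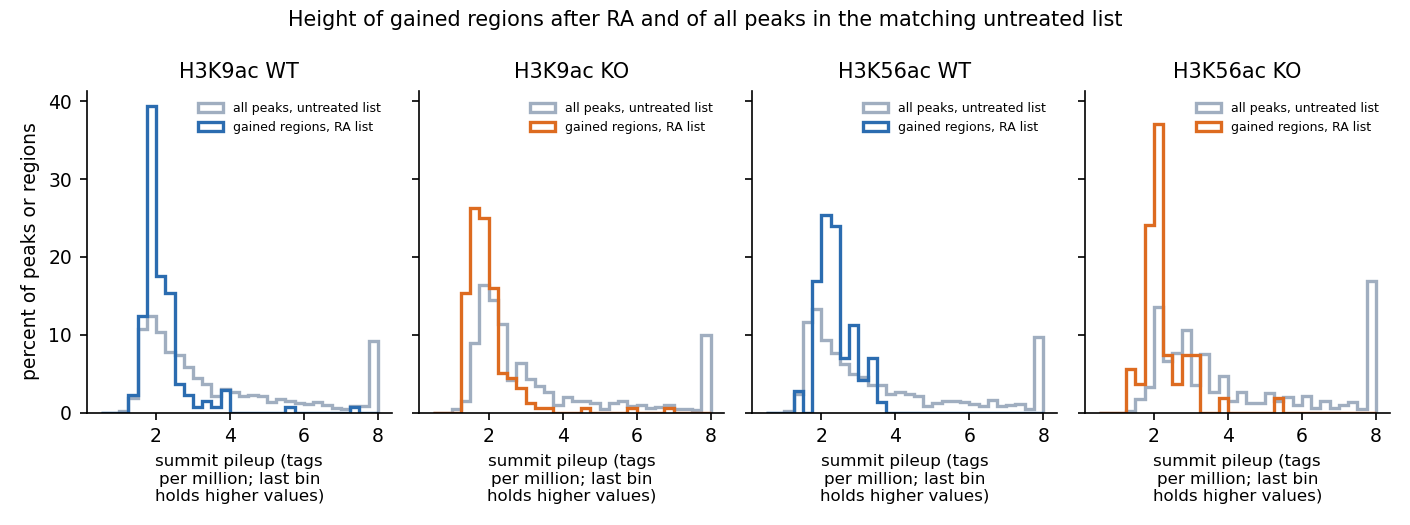
Summit height in tags per 1000000 filtered tags (x axis) as the percent of peaks or regions (y axis), for gained regions in each RA list (coloured) and all peaks of the untreated list of the same mark and genotype (grey); the last bin also holds higher values. Most gained regions sit at about the height of the lower untreated peaks, with medians of 1.76 to 2.28 after RA against 2.49 to 3.29 in the untreated lists.

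Between the genotypes the median folds after RA differed little for H3K9ac, and most H3K56ac folds were lower in KO. Of the 128 regions with H3K9ac in both, 56 had the higher fold in KO, or 43.8% (35.5% to 52.4%), beside 51.1% of all 2277 regions with that mark in both RA lists. The median difference, KO minus WT, was -0.14 (quartiles -1.09 and 0.66), from medians of 8.77 in KO and 8.93 in WT, and 98 of the 128 differed by less than 2 (76.6%), beside 63.3% of all 2277 regions, whose median folds were higher, at 12.8 in KO and 12.6 in WT. For H3K56ac 8 of 31 regions were higher in KO, or 25.8% (13.7% to 43.2%), beside 43.7% of all 1644 such regions, with a median difference of -0.68. In tags per 1000000 filtered tags, 28.9% of the H3K9ac regions were higher in KO (21.8% to 37.3%), beside 36.4% of all such regions. For H3K56ac that share was 19.4% (9.19% to 36.3%), beside 44.3%. The largest differences were at single regions, from -4.57 to 5.74 for H3K9ac and from -5.10 to 3.69 for H3K56ac. With 1 library a group, none of these differences has a test.

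**Figure D4:**
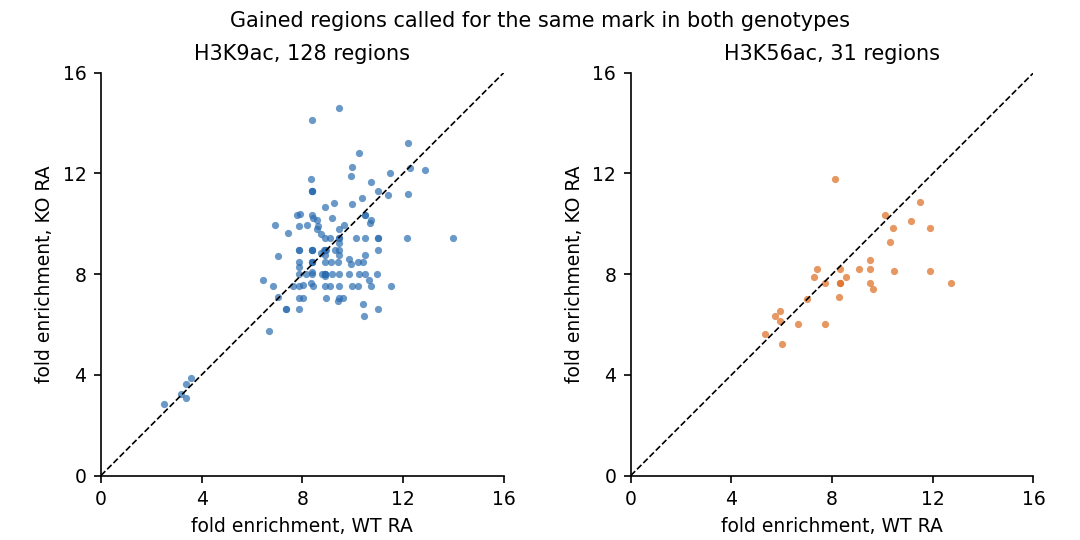
Deposited fold enrichment after RA in WT (x axis) and KO (y axis) for gained regions called for H3K9ac (left) or H3K56ac (right) in both genotypes; each point is a region and the dashed line marks equal folds. Points scatter on both sides of the line for H3K9ac, with 56 of 128 above it, and 8 of 31 lie above it for H3K56ac.

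The distance between WT and KO summits is given as a description, since the same peaks chose the regions. The overlap of short peaks already limits how far apart they can be. For H3K9ac they were a median of 20.5 bp apart (quartiles 9 and 47), with 97 of 128 within 50 bp (75.8%). That share was 84.4% in regions with peaks in both conditions and, after RA, in both genotypes, but not in all 8 lists, and 92.0% in regions of all 8 lists. For H3K56ac the median was 38 bp, with 20 of 31 within 50 bp (64.5%), against 81.0% and 87.9%. The comparison regions were also higher, with median highest folds of 13.5 and 21.4 against 9.45, and the part of height in this was not tested. Within a genotype the H3K9ac and H3K56ac summits were a median of 22.5 bp apart in WT (32 regions) and 24.5 bp in KO (34 regions).

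The gained regions were spread over the genome. Their median length was 234 bp (quartiles 218 and 257, range 204 to 480), and 159 of 176 were under 300 bp. The median was 254 bp over all merged regions, and 205 and 225 bp over regions called after RA in WT only and in KO only. No region contained more than 1 peak of any list. The longest was on chromosome 14 (5071940 to 5072419), with H3K9ac folds of 6.46 in WT and 7.77 in KO. Next came 2 regions of 462 bp, on chromosome 6 (133408444 to 133408905), with folds of 6.00 to 8.23, and on chromosome 11 (3001089 to 3001550), with folds of 3.09 to 4.48.

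Every one of the 19 autosomes held at least 1 gained region, with 154 regions on autosomes, 15 on X, 2 on Y and 5 on unplaced contigs. Chromosome 8 held the most, 17 regions or 9.66% (6.12% to 14.9%), beside 4.41% of all merged regions. The difference from the other 6224 merged regions was 5.40 percentage points (Newcombe interval 1.82 to 10.7). The 17 were not a cluster, since the nearest pair was 764842 bp apart. Chromosome 16 held 11, or 6.25% beside 3.44% of all regions (difference 2.89 points, 0.126 to 7.50). Chromosome 4 held 4, or 2.27% beside 6.34% (difference -4.19 points, -5.71 to -0.712). Chromosome X held 15, or 8.52% beside 7.48% (difference 1.07 points, -2.29 to 6.17). These intervals are not adjusted for the 30 chromosomes and contigs compared, and regions are not replicates. Neighbouring gained regions were a median of 8472640 bp apart, and 4 pairs were within 100000 bp.

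The nearest untreated peak was a median of 135025 bp away, with 19 regions within 10000 bp of one and 5 within 1000 bp. The closest was 102 bp away, at a region on an unplaced contig (Un_random, 3916120 to 3916418; H3K9ac folds 3.17 in WT and 3.24 in KO). The next were another region on that contig (4533002 to 4533213; 2.50 and 2.86), 274 bp away, and the 462 bp region on chromosome 11, 520 bp away. All of these 3 had low folds from many tags, 32 to 71 at the summit. Of the 5 gained regions whose highest fold was under 5, 3 were on unplaced contigs and 2 on chromosome 11 (3001089 to 3001550, and 3001856 to 3002066). On the other side of the rule, the removed region with the least untreated overlap was on chromosome 16 (8084472 to 8084821). There the RA folds were 6.82 and 6.13 for H3K9ac in WT and KO and 7.13 for H3K56ac in WT, the untreated WT folds were 10.1 and 6.93 for H3K9ac and H3K56ac, and the largest overlap of an untreated and an RA peak was 58 bp. The next removed regions were on chromosomes 8 (58081645 to 58082009, 121 bp) and 3 (124529944 to 124530270, 123 bp). The RA folds at these 3 removed regions were 6.13 to 7.83, above those of the 3 regions just inside the rule, 2.50 to 4.48. The highest untreated fold at each removed region was 10.1, 6.89 and 8.52.

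Few gained regions lay at a Sirt6 peak. A Sirt6 peak of untreated WT cells overlapped 5 of the 176 regions, or 2.84% (1.22% to 6.48%), beside 26.9% of all merged regions. Of the 1723 merged regions with a Sirt6 peak, 1221 were called in untreated lists of KO cells only. Regions called after RA in 1 genotype only held one more often than gained regions, at 81 of 623, or 13.0% (10.6% to 15.9%). The difference, gained in both minus 1 genotype, was -10.2 percentage points (-13.5 to -5.80). By genotype the shares were 10.3% of the 185 regions seen after RA in WT only and 14.2% of the 438 in KO only, differences of -7.43 points (-12.9 to -2.32) and -11.3 points (-15.2 to -6.63). Within a mark the shares of gained and WT-only regions were close: 36.4% and 38.0% with H3K56ac alone (11 and 50 regions), 1.22% and 0 with H3K9ac alone (82 and 129 regions), and 0 in both with both marks (83 and 6 regions). The part of this mix of marks in the difference was not tested. Against KO-only regions, the share was 1.22% beside 13.4% with H3K9ac alone (82 and 298 regions). With both marks it was 0 beside 6.90% (83 and 29 regions), with intervals that overlapped. With H3K56ac alone it went the other way, at 36.4% beside 18.0% (11 and 111 regions), with intervals that overlapped. Regions in all 8 lists gave 13.5% (difference -10.7 points, -13.4 to -6.51). Regions in untreated lists of WT only gave 6.65%, a difference of -3.81 points whose interval held 0 (-6.30 to 0.121). Regions in untreated lists only, of either genotype, gave 52.4% (difference -49.5 points, -52.1 to -45.4), most of them from KO cells only, where 76.8% of 1590 regions held a Sirt6 peak at a median highest fold of 5.88. Regions called in both conditions and, after RA, in both genotypes, but not in all 8 lists, gave 5.22%, and that difference of -2.38 points had an interval that held 0 (-4.46 to 1.41). Regions of 1 genotype, which need a peak in only 1 list, also had a lower median highest fold, 7.54 against 9.45. The part of fold in the contrast was not tested. The contrast was smaller among stronger peaks. At a −log10 q of at least 10 in the acetylation and Sirt6 lists, the rule gave another set that also numbered 176, of which 107 were regions of the first set. In it 0 of 176 overlapped a Sirt6 peak, which allows a share of up to 1.70%, against 4 of 431 of 1 genotype (0.928%). The difference was then -0.93 points (-2.36 to 1.28). With that limit on the RA lists alone, both shares were 0, of 107 and of 290 regions. Without the H3K9ac library of KO cells after RA, 4 of 53 gained regions held a Sirt6 peak, against 42 of 449 of 1 genotype, a difference of -1.81 points (-7.30 to 8.77). Without the H3K9ac library of WT cells after RA, it was 4 of 71 against 82 of 599, a difference of -8.06 points with an interval that also held 0 (-12.6 to 0.309).

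**Figure D5:**
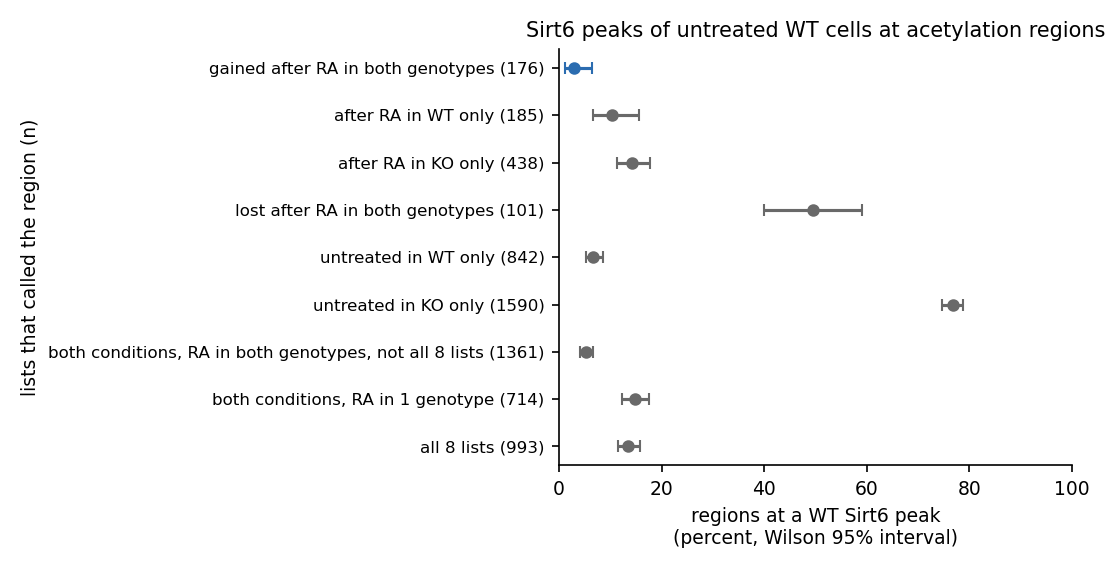
Percent of merged acetylation regions that overlap a WT Sirt6 peak by 1 bp or more (x axis) for each class of region (y axis, number of regions in parentheses); points are shares and bars Wilson 95% intervals, which cover counting error only. The gained regions (blue) are at 2.84%, and the regions called in untreated lists of both genotypes and lost after RA are at 49.5%.

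The few Sirt6 sites among the gained regions were mostly H3K56ac without H3K9ac. Of the 11 regions with H3K56ac in WT and KO and no H3K9ac, 4 overlapped a Sirt6 peak, or 36.4% (15.2% to 64.6%), beside 42.3% of all 763 merged regions with H3K56ac alone. The overlap was 1 of the 165 regions with any H3K9ac list (0.606%, 0.107% to 3.35%) and 1 of the 82 with H3K9ac alone, beside 41.4% of all 2313 merged regions with H3K9ac alone. Of the merged regions with a Sirt6 peak, those called in untreated KO lists only were 905 of 958 with H3K9ac alone. With H3K56ac alone they were 208 of 323. The choosing rule leaves out that class. The 4 lay on chromosome X (103124150 to 103124547; H3K56ac folds 6.63 in WT and 6.00 in KO), chromosome 8 (109580091 to 109580504; 5.92 and 6.12), chromosome 19 (45857467 to 45857858; 6.01 and 5.24) and chromosome 11 (79903030 to 79903337; 5.34 and 5.61). The folds of the Sirt6 peaks there were 6.05, 21.9, 16.4 and 12.9, in the same order. These 4 regions were 308 to 414 bp long and had highest H3K56ac folds of 5.61 to 6.63. The other 7 regions with H3K56ac alone were 227 to 273 bp long and had highest folds of 7.01 to 11.8, shorter and higher than each of the 4. This split was chosen after the values were seen, and none of the 4 reached a −log10 q of 10 in either H3K56ac list. The fifth Sirt6 site was the region on the unplaced contig at 4533002, where the Sirt6 fold was 2.96. In regions of WT after RA only, 19 of 50 with H3K56ac alone held a Sirt6 peak (38.0%), against 0 of 129 with H3K9ac alone. In regions of KO after RA only, the intervals overlapped, at 20 of 111 (18.0%, 11.98% to 26.2%) and 40 of 298 (13.4%, 10.0% to 17.8%). In untreated KO-only regions the order was the other way, at 66.5% with H3K56ac alone and 80.1% with H3K9ac alone.

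The reverse class, called in untreated lists of both genotypes and in no RA list, was smaller, and lay at Sirt6 peaks more often by the interval of the difference. This comparison was added after the data were seen. The class held 101 regions, of which 50 overlapped a Sirt6 peak, or 49.5% (40.0% to 59.1%). The difference, gained minus lost, was -46.7 percentage points (-56.4 to -36.4). Lost regions were lower, with a median highest fold of 7.94, and longer, with a median of 280 bp. The contrast narrowed with the stricter q limit, where 2 of 30 lost regions held a Sirt6 peak (6.67%) and the difference was -6.67 points (-21.3 to -1.40). It also rested on the untreated H3K56ac list of WT cells: without it, 0 of 26 lost regions held a Sirt6 peak, against 5 of 246 gained regions. Without the H3K9ac list of KO cells after RA the difference was -29.2 points (-38.4 to -16.5). The Sirt6 library came from untreated cells, so Sirt6 binding after RA was not analysed here.

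No gained region was near a window listed for a change in 5-hydroxymethylcytosine, the oxidised form of methylated cytosine that Tet enzymes make. The authors' deposited table lists 3780 windows of 500 bp as differing between untreated KO and WT cells. That comparison had 1 library of each genotype, so the listed changes have no replicate check. Of the 176 gained regions, 0 had such a window within 1000 bp, which allows a share of up to 1.70%, beside 0.875% of all merged regions. The nearest window was 13143 bp away, and 12 regions had one within 100000 bp. Given the background share, a difference from other acetylation regions was not detectable with 176 regions.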

How the data were processed

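The submitters' processing notes name BWA 0.5.9, Picard and mm9. Peaks came from MACS2 2.0.10, and the file headers give a q limit of 0.01 in each library. The acetylation lists had no control library, so reads that pile up in any library stay in, and the WT Sirt6 list had whole-cell extract as control, per the file headers. The deposited lists give the pileup signal at the summit, the −log10 p and −log10 q, and the fold enrichment of each peak. The CMS-IP table gives the authors' read counts, RPKM, log2 fold changes and p-values, and only the window positions were used here. There were 0 unused columns of per-sample values.

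Lists were merged by overlap of 1 bp, and a region took the highest value of each list. Shares carry Wilson intervals and differences of shares Newcombe intervals; for shares of 0 the upper limit is 3 counts. Signal was scaled to 1000000 filtered tags. Regions named are the 10 with the highest fold, the 10 of all 4 RA lists with the highest lowest fold, the 5 highest at Sirt6 peaks, the 3 longest, the 3 nearest to the limit on either side, and the highest per combination of marks. Gene lists in that rule went unused because no mm9 annotation was at hand. The regions and lists were chosen with earlier results of these data known. Alternatives are in the closing section. Merging was tested on simulated data: 321 of 321 planted gained regions among 3150 were recovered. The simulated regions lay too far apart to touch, and the peaks of each region started close together. Peaks that bridge neighbouring regions, and peaks that barely overlap or miss each other, were therefore not part of that check. Plots were drawn with matplotlib 3.10.9; the computing tools were pandas 2.3.3 with numpy 2.4.6, statsmodels 0.14.6 with scipy 1.17.1, all under Python 3.11.15.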

Additional observations from a re-analysis of the deposited data

How the results depend on the processing

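The number of gained regions, 176, stayed within 1.5 times under 5 planned settings: 176 with a −log10 q of at least 10 in all lists (107 of the original regions kept), 174 with overlap of 50% of the shorter peak (173 kept), 121 with lists of equal length (73 kept), 171 with no untreated peak within 1000 bp and 154 on autosomes. It fell to 107 with the q limit on the RA lists alone, 31 with H3K56ac in both genotypes and 87 with the H3K56ac lists alone, and was 128 with H3K9ac in both genotypes and 225 with the H3K9ac lists alone. Leaving out 1 list gave 53 to 271 regions: 53 without H3K9ac of KO after RA, 71 without H3K9ac of WT after RA and 271 without untreated H3K9ac of KO. Leaving out an RA list gave fewer regions each time and leaving out an untreated list gave more. The rule largely fixes that direction, apart from peaks that bridge others in the chaining.

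The share with H3K9ac in both genotypes, 72.7%, was 80.1% and 83.2% with the q limit on all lists and on the RA lists, and 48.8% with lists of equal length. The median fold, 9.45, was 10.4 with the q limit and 8.01 from the lowest fold. The share higher in KO, 43.8%, was 25.8% for H3K56ac and 28.9% by scaled pileup.

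Sirt6 overlap, 2.84%, was 0 under both q limits and with lists of equal length, 0.781% with H3K9ac and 12.9% with H3K56ac in both genotypes, and 0.641% to 7.55% with 1 list left out. These last 3 settings were chosen after seeing the data. The difference from regions of 1 genotype, -10.2 points, was -0.93 and 0 under the q limits and -12.6 to -1.81 with 1 list left out, where the interval held 0 without H3K9ac of KO or of WT after RA. The difference from lost regions, whose alternatives were chosen after seeing the data, was -46.7 points, -6.67 with the q limit on all lists, -4.65 with lists of equal length and -56.8 to 2.03 with 1 list left out; it reversed to 2.03 (-10.9 to 4.67) without untreated H3K56ac of WT. The causes of these shifts were not tested. The CMS-IP count was 0 under both settings. No paired analysis was possible because each group held 1 library.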
